A study of Mus musculus with 6 samples.

Results

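The 42 genes described here build and control the mitotic spindle and the kinetochore, the protein structure by which a chromosome holds on to spindle microtubules. They were chosen by symbol, for their known part in mitosis, but with earlier results of these data known. Of these, 42 of 42 were found among the 34591 gene rows of each library and passed the filter on low counts. Gene counts from RNA-seq were deposited for 6 libraries, each from a medulloblastoma model in mouse brain; the design text calls the tumours WNT medulloblastoma, a hindbrain cancer driven by the WNT pathway. There were 3 libraries of the control model and 3 of the model with knock-down of Ift88 by the short hairpin RNA sh2-Ift88; Ift88 is a transport protein needed to build primary cilia. Driver alleles, strain, age, the hairpin's vector and the control's hairpin, if any, do not appear in the labels. Nor do the labels say whether libraries came from different animals, so the p-values rest on the spread among these 6 libraries alone, and that spread may be technical. Levels are CPM, counts scaled to a common library size after TMM scaling, which sets the bulk of genes equal between libraries. Values follow replicate order 1, 2 and 3, and sh2-Ift88 2, for example, stands for replicate 2 of the libraries labelled sh2-Ift88.

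During mitosis cyclin-dependent kinase 1 and its cyclins start chromosome condensation and spindle assembly, motor proteins of the kinesin family move chromosomes and spindle poles, and the spindle checkpoint holds back anaphase until every kinetochore is attached. Most of these genes are transcribed in late S phase, G2 and mitosis and are low in cells that do not divide, so in bulk tissue their level can follow the share of dividing cells. Fewer dividing cells and less of such RNA per dividing cell cannot be told apart in these libraries. The title of the series speaks of cilia and cell division; the cilium is taken down before mitosis, since its base, the centriole, serves the spindle poles.

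Many late cell cycle promoters hold CCAAT boxes, bound by the factor NF-Y, and the cell cycle homology element, written TTTGAA or TTTAAA, bound by the MuvB complex together with B-MYB and FOXM1. The stretch of 250 bases before the RefSeq start (GRCm38.p6) is given for each of 6 members. They are the 6 of highest mean CPM, not scaled by length, that hold both kinds of motif and at most 30 bases annotated as exon. Capitals mark any of these motifs on either strand, so a motif of the opposite strand appears as its reverse complement, and each line is written 5′ to 3′ on the gene's strand.
Top2a (chr11:99024190-99024439, minus strand): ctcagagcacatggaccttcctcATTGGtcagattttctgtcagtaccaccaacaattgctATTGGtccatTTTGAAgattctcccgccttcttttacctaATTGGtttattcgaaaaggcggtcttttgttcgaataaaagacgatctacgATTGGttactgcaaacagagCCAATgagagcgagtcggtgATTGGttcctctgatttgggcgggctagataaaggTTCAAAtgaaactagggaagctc
Mki67 (chr7:135716380-135716629, minus strand): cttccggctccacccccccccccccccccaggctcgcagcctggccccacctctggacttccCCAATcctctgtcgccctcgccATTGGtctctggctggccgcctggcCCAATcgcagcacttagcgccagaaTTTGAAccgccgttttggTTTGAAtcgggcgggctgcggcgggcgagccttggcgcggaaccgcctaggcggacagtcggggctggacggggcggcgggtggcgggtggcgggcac
Kif11 (chr19:37376132-37376381, plus strand): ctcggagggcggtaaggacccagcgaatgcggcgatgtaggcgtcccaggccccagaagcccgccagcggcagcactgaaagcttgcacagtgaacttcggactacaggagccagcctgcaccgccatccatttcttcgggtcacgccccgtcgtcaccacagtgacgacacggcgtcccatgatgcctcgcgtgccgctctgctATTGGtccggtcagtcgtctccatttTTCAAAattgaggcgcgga
Cdc20 (chr4:118437344-118437593, minus strand): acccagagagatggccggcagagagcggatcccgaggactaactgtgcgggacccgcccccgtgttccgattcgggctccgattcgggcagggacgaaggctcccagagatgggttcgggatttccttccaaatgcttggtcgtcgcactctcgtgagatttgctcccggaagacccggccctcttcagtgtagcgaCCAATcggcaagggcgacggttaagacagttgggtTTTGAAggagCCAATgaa
Cenpf (chr1:189688087-189688336, minus strand): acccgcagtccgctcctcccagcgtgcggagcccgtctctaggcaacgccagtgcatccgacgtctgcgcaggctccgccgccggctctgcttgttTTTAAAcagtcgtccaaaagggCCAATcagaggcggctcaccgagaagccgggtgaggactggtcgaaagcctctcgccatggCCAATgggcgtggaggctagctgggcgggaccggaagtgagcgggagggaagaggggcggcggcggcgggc
Cdk1 (chr10:69352913-69353162, minus strand): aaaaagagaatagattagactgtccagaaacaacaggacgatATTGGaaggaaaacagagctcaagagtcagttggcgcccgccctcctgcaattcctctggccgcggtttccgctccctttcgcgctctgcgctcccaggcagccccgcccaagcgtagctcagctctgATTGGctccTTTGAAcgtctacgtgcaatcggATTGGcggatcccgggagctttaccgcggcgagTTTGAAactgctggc

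Of the 42 members, 33 matched a window in the RefSeq promoter table. CCAAT on either strand stood in 25 of these 33 windows (75.8%), against 34.5% of 27025 windows of the same length over all genes. TTTGAA on either strand stood in 11 of 33 (33.3%), against 16.3%, and TTTAAA in 6 of 33 (18.2%), against 12.1%. Both CCAAT and 1 of the other motifs stood in 13 of 33 (39.4%), against 9% of all windows. In no member did a CCAAT share bases with either of the other motifs, or TTTGAA with TTTAAA. Top2a held 6 CCAAT motifs, and its nearest TTTGAA lay 23 to 18 bases before the start. In Cdc20 a TTTGAA lay 18 to 13 bases before the start, between CCAAT motifs at 53 to 49 and at 8 to 4 bases before it, and in Kif11 it lay 19 to 14 bases before it. These matches describe the letters in these windows, not binding, and their part in the level of any member was not tested. Members without a match were, for example, Mad2l1, Ndc80, Nuf2, Kif20b and Anln. As sh2-Ift88 2 was the lowest library for 42 of 42 members, its place does not separate members with and without a match.

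Gene counts summed to between 26802618 and 33772559 per library, and a member had between 143 and 22068 counts in a library. Ift88, the gene the hairpin targets, was at 13.8, 19.7 and 13.7 CPM in control libraries and at 14.7, 16.03 and 14.4 CPM in those labelled sh2-Ift88, with means of 15.7 ± 3.47 and 15.05 ± 0.859 CPM (SD, n = 3 each). This difference was smaller than the spread between libraries and does not check the labels, and each direction given here is that of the libraries labelled sh2-Ift88 against the controls. The WNT target Axin2 was at 764, 327 and 361 CPM in control libraries and at 320.1, 509 and 365 CPM in those labelled sh2-Ift88, and Wif1, a secreted WNT antagonist, was at 1346 CPM or more in each library, while Lmx1a, a factor of the rhombic lip, was at 1.10 CPM or less. Control 2, sh2-Ift88 2 and sh2-Ift88 3 had counts in 437, 497 and 340 olfactory receptor genes, whose products are the odour sensors of the nose, and the other 3 libraries in 21 to 31. In sh2-Ift88 3 the gene models Gm10800, Gm16869, Gm10718 and Gm10722 took 40.5% of gene counts, against 8.88% in control 2, 6.18% in sh2-Ift88 2 and at most 0.120% elsewhere, so the level of other genes in that library depends on how it is scaled.

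The mitotic genes were lowest in a single library, sh2-Ift88 2, and showed no difference between the groups that passed the test. For 42 of 42 members sh2-Ift88 2 was the lowest of the 6 libraries, whereas it was the lowest for 12.4% of all 16768 genes tested. The members were chosen with earlier results of these data known, so such contrasts with all genes describe them and are no test. Top2a, the topoisomerase that untangles sister chromatids, was at 356, 412 and 546 CPM in control libraries and at 328, 144 and 426 CPM in those labelled sh2-Ift88. The proliferation antigen Mki67, which coats mitotic chromosomes, was at 198, 313 and 347 CPM in control libraries and at 312, 140.2 and 324 CPM in those labelled sh2-Ift88. For both, the other 2 libraries labelled sh2-Ift88 lay near or within the range of the controls, and sh2-Ift88 2 lay below all of them. Its level was a median of 56.4% of the next lowest library, from 37.2% for Ccnb1 to 83.6% for Cenpf, and it was under 50% of every other library for 15 of 42 members, against 0.614% of all genes tested. On the log2 scale sh2-Ift88 2 lay a median of -1.38 from the mean of the other 5 libraries over the members, and 0.08 over all genes.

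The mean level of the 42 genes was 5.24, 5.70 and 5.96 in control libraries and 5.36, 4.27 and 5.86 in those labelled sh2-Ift88 (log2 CPM). Control 3 was thus the highest library, sh2-Ift88 3 and control 2 came next, and sh2-Ift88 1 and control 1 lay between these and sh2-Ift88 2. The next lowest library after sh2-Ift88 2 was control 1 for 20 members, sh2-Ift88 1 for 19, control 2 for 2 and sh2-Ift88 3 for 1. The highest library was control 3 for 19 members, sh2-Ift88 3 for 13 and control 2 for 7. The place of sh2-Ift88 3 rests on scaling: with library totals alone it was the highest for 0 members, and with totals that leave out the 4 abundant gene models named above for 2. The place of sh2-Ift88 2 depended on it less: it was the lowest for 42 members with DESeq2 size factors and for 40 with library totals alone.

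**Figure D1:**
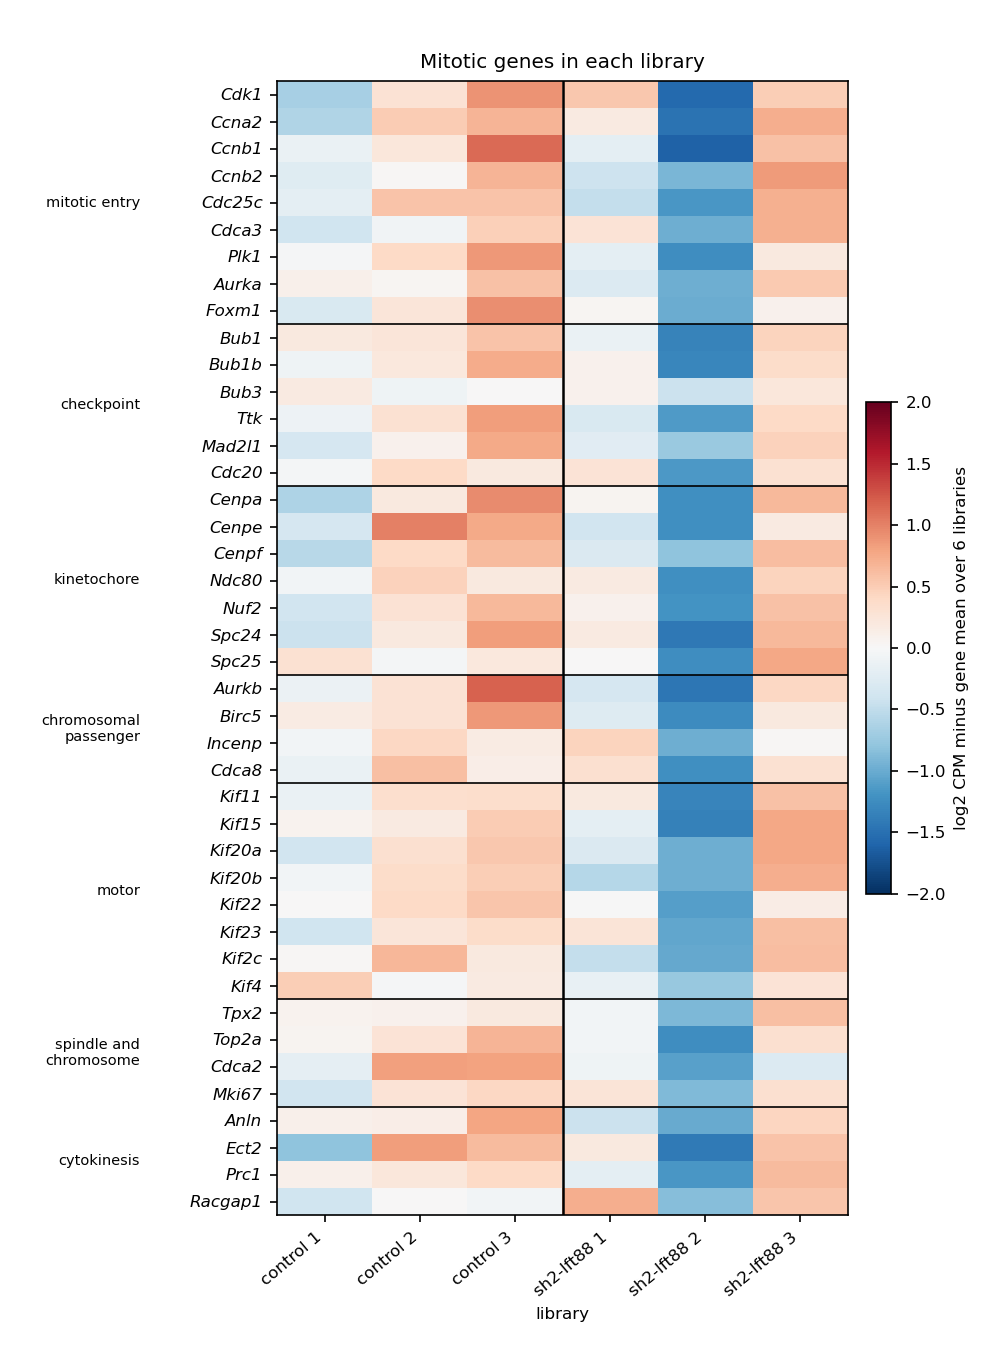
Each row is 1 of the 42 mitotic genes, grouped by role, each column is 1 library, and colour gives log2 CPM minus the gene's mean over the 6 libraries. The column of sh2-Ift88 2 is blue in every row. The columns of control 3 and sh2-Ift88 3 lie above the gene's mean in all rows but Racgap1 and Cdca2, respectively. Those of control 1, control 2 and sh2-Ift88 1 hold both colours.

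Between the groups, 40 of 42 members had a lower fitted level in the libraries labelled sh2-Ift88 and 2, Cdca3 and Racgap1, a higher one (Cdca3 was lower with library totals alone, -0.36, and in limma-voom, -0.06), where 51.3% of all genes were lower. None of these differences passed: edgeR's quasi-likelihood test called 0 members at an adjusted p of 0.05, as it called 0% of all genes, and each member's adjusted p was 0.9995. DESeq2 called 0 members (0.396% of all genes), limma-voom 0 and edgeR without a filter 0 (0.0194% of all genes). At an unadjusted p of 0.05 there was 1 member, Cdca2, against 3.23% of all genes; with library totals alone there were 13 members (3.64% of all genes) and without sh2-Ift88 3 there were 8 (2.77% of all genes), none with an adjusted p below 0.05. The groups overlapped for every member, while they did not overlap for 8.39% of all genes. The median log2 difference over the members was -0.31, against -0.01 over all genes. With library totals alone the median was -0.80 over the members and -0.33 over all genes, so directions given here are relative to TMM scaling. Without sh2-Ift88 2 the TMM median was 0.02, with 20 members lower and 22 higher. There were then 0 members called (0% of all genes) and 1 at an unadjusted p of 0.05 in edgeR (2.93% of all genes). As sh2-Ift88 2 was the lowest library for every member, leaving it out was bound to raise the median. The median moved the other way, to -0.81, without sh2-Ift88 3, with 41 members lower, and to -0.53 without control 1, with 40 lower. Without control 3 it moved the same way as without sh2-Ift88 2, but less, to -0.21, with 30 lower and 12 higher. Among the 3 libraries with many olfactory receptor genes (control 2 against sh2-Ift88 2 and sh2-Ift88 3) the median was -0.43, with 37 members lower and 5 higher. Among the other 3 (control 1 and control 3 against sh2-Ift88 1), also without sh2-Ift88 2, it was -0.47, with 31 lower and 11 higher. In each of these sets, however, 1 library stands for a group. The 95% intervals of single members were wide, from 1.16 log2 units across for Bub3 to 2.82 for Cdk1, so a change of moderate size in either direction was not detectable with 3 libraries a group.

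**Figure D2:**
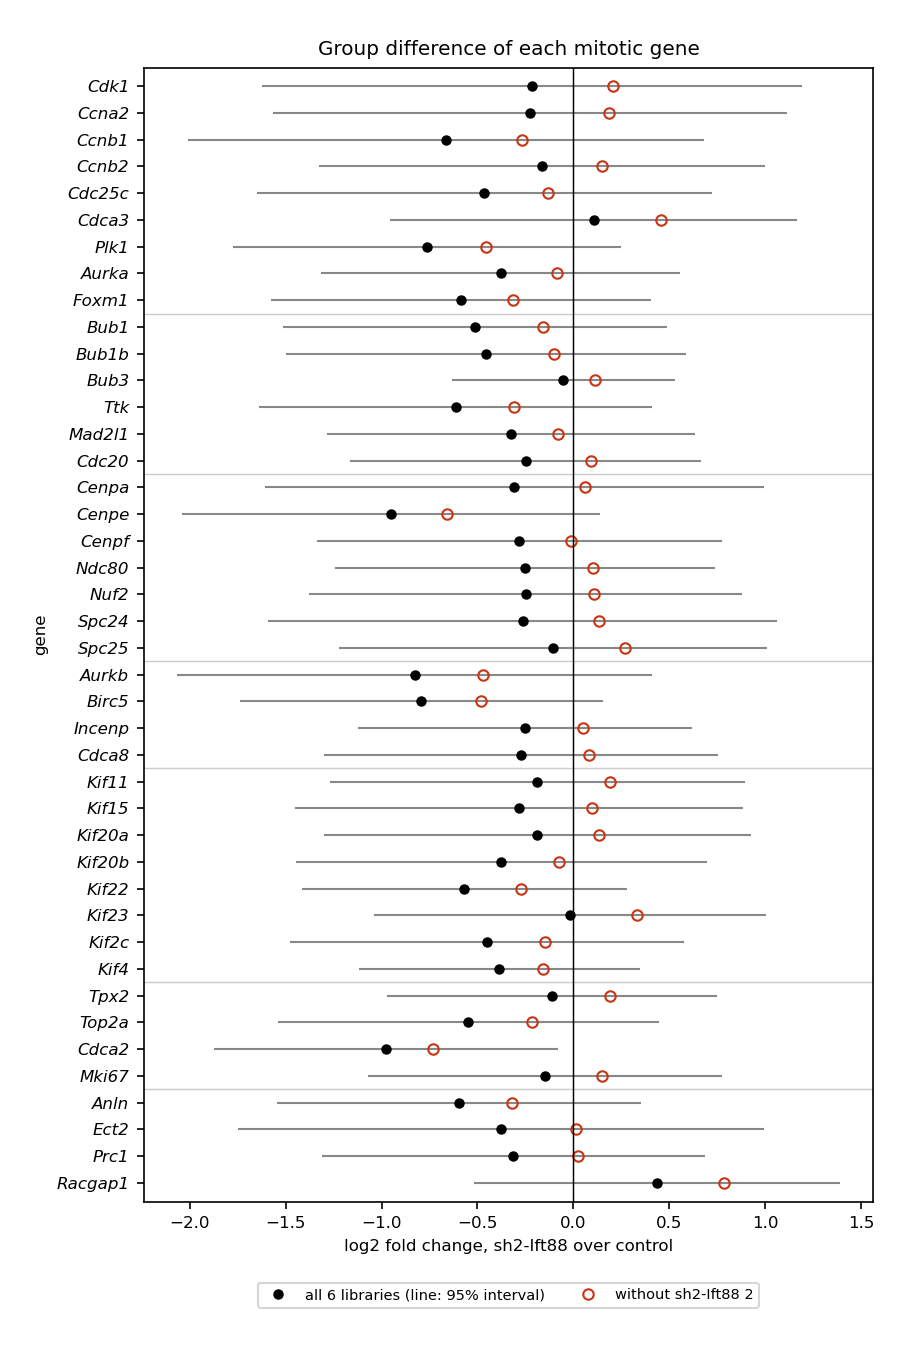
Each row is 1 mitotic gene; black points give the log2 fold change of sh2-Ift88 over control in edgeR with its 95% interval (lines), and open red circles give the same without sh2-Ift88 2. All intervals but that of Cdca2 cross 0, and the circles lie around 0, with 20 below and 22 above it.

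Among the 9 genes of mitotic entry, 8 had a lower and 1 a higher fitted level in the libraries labelled sh2-Ift88, with a median log2 difference of -0.38, which was -0.09 without sh2-Ift88 2. Ccnb1, the cyclin that activates Cdk1 at the start of mitosis, was at 70.6, 90.3 and 169 CPM in control libraries and at 67.5, 25.1 and 115 CPM in those labelled sh2-Ift88. Its fold between highest and lowest library, 6.73, was the widest of the 42 genes, and control 3 and sh2-Ift88 2 were its ends. The log2 difference between the groups was -0.67 (SE 0.57). The polo kinase Plk1, which matures centrosomes and kinetochores, was at 13.2, 17.9 and 24.6 CPM in control libraries and at 11.7, 5.71 and 15.4 CPM in those labelled sh2-Ift88, a difference of -0.76 (SE 0.43), and its 95% interval spanned 29.2% to 119% of the mean in the controls. Only control 1 among the controls lay below a library labelled sh2-Ift88. Foxm1, the transcription factor that turns on genes of this phase, was at 15.6, 22.9 and 36.8 CPM in control libraries and at 19.8, 9.74 and 20.6 CPM in those labelled sh2-Ift88, a difference of -0.59 (SE 0.42). Chosen after its values were seen, Cdk1, the kinase that cyclin B switches on, was at 37.9, 73.04 and 112 CPM in control libraries and at 86.98, 20.5 and 84.6 CPM in those labelled sh2-Ift88. Control 1 was thus the next lowest library after sh2-Ift88 2, and sh2-Ift88 1 lay inside the range of the controls. The cyclins Ccna2 and Ccnb2 spanned 27.9 to 128 CPM and 15.8 to 54.03 CPM over the 6 libraries, with sh2-Ift88 3 as the highest. Aurora kinase A (Aurka), which acts at spindle poles and also in taking down the cilium, spanned 12.6 to 37.3 CPM, with a difference of -0.38 (SE 0.40). Cdc25c, a phosphatase that switches Cdk1 on, spanned 6.42 to 23.4 CPM, and Cdca3, an adaptor in the destruction of the kinase Wee1, spanned 17.2 to 55.7 CPM.

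The 6 checkpoint genes all had a lower fitted level, with a median of -0.39 and of -0.09 without sh2-Ift88 2. Ttk, the kinase that starts checkpoint signalling, was at 17.4, 23.2 and 33.3 CPM in control libraries and at 15.1, 8.57 and 24.7 CPM in those labelled sh2-Ift88, a difference of -0.61 (SE 0.44). Bub1, a kinase docked at the kinetochore, was at 52.2, 54.2 and 67.6 CPM in control libraries and at 41.7, 18.1 and 62.3 CPM in those labelled sh2-Ift88, a difference of -0.51 (SE 0.43). For both genes sh2-Ift88 3 lay inside the range of the controls, sh2-Ift88 1 somewhat below it and sh2-Ift88 2 far below it. Bub1b, part of the inhibitor that holds the anaphase promoting complex, was at 64.4, 79.2 and 114 CPM in control libraries and at 72.3, 27.8 and 88.01 CPM in those labelled sh2-Ift88, a difference of -0.45 (SE 0.44). Bub3, the partner that brings both Bub proteins to kinetochores, was the flattest member, at 122, 102 and 109 CPM in control libraries and at 115, 79.9 and 126 CPM in those labelled sh2-Ift88. Its highest library was 1.57 times its lowest, where the median member spanned 3.58 times, and sh2-Ift88 2 was still its lowest library. Mad2l1, which binds and holds Cdc20, spanned 12.2 to 34.5 CPM. Cdc20, the activator of the anaphase promoting complex, spanned 38.9 to 113 CPM and was within 83.8 to 113 CPM in all libraries but sh2-Ift88 2.

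All 7 kinetochore and centromere genes had a lower fitted level, with a median of -0.26, which was 0.10 without sh2-Ift88 2. Cenpe, a kinesin that carries chromosomes along the spindle from the kinetochore, was at 38.8, 99.2 and 82.8 CPM in control libraries and at 37.6, 21.1 and 55.8 CPM in those labelled sh2-Ift88. Control 1 and sh2-Ift88 1 were alike, control 2 and control 3 were the highest, and the difference was -0.95 (SE 0.46), or -0.66 without sh2-Ift88 2. Cenpf, a large protein of the outer kinetochore, was at 53.6, 104 and 122 CPM in control libraries and at 64.3, 44.8 and 121 CPM in those labelled sh2-Ift88, a difference of -0.28 (SE 0.45). In this gene control 1 was close to sh2-Ift88 2. Ndc80, the subunit of the Ndc80 complex that grips microtubules, was at 28.3, 40.2 and 33.6 CPM in control libraries and at 33.1, 12.6 and 39.98 CPM in those labelled sh2-Ift88, a difference of -0.25 (SE 0.42). Its partners Nuf2, Spc24 and Spc25 spanned 10.4 to 37.5 CPM, 4.80 to 23.2 CPM and 8.13 to 32.9 CPM. For Ndc80, Spc24 and Spc25, sh2-Ift88 2 was under 50% of the next lowest library. The centromeric histone Cenpa spanned 9.48 to 42.99 CPM.

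The 4 genes of the chromosomal passenger complex, which corrects faulty attachments and later works in cytokinesis, all had a lower fitted level, with a median of -0.53 and of -0.21 without sh2-Ift88 2. Its kinase Aurkb was at 36.6, 48.03 and 89.8 CPM in control libraries and at 31.3, 14.5 and 52.6 CPM in those labelled sh2-Ift88, a difference of -0.83 (SE 0.53). Control 3 stood above every other library for this gene. Birc5 (survivin), the subunit that targets the complex to centromeres, was at 26.7, 28.9 and 43.1 CPM in control libraries and at 19.9, 9.88 and 27.2 CPM in those labelled sh2-Ift88, a difference of -0.79 (SE 0.41) with a 95% interval from 29.9% to 111% of the control level. The groups came close to separating here, as only sh2-Ift88 3 reached above control 1. Incenp, the scaffold that activates the kinase, was at 33.4, 46.2 and 38.96 CPM in control libraries and at 46.996, 17.5 and 35.1 CPM in those labelled sh2-Ift88, and sh2-Ift88 1 was its highest library. Cdca8 (borealin) spanned 11.7 to 41.3 CPM.

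Each of the 8 kinesin motor genes had a lower fitted level, with a median of -0.33, and 0.01 without sh2-Ift88 2. Kif22, a motor on chromosome arms, was at 27.1, 35.7 and 39.8 CPM in control libraries and at 26.7, 12.6 and 29.9 CPM in those labelled sh2-Ift88, a difference of -0.57 (SE 0.36). Kif4, which shortens the central spindle with Prc1, was at 49.6, 34.6 and 39.996 CPM in control libraries and at 31.8, 20.9 and 42.5 CPM in those labelled sh2-Ift88, a difference of -0.39 (SE 0.31). It was the single member with control 1 as its highest library. Kif2c, which takes microtubule ends apart, was at 42.3, 65.7 and 47.4 CPM in control libraries and at 29.9, 20.3 and 63.6 CPM in those labelled sh2-Ift88, a difference of -0.45 (SE 0.44). Kif11, the motor that drives spindle poles apart, was at 78.1, 108 and 109 CPM in control libraries and at 97.1, 33.9 and 127 CPM in those labelled sh2-Ift88. Its 5 libraries other than sh2-Ift88 2 lay within 78.1 to 127 CPM. Kif15, which can stand in for Kif11, spanned 16.3 to 71.3 CPM, and the motors of cytokinesis Kif20a, Kif20b and Kif23 spanned 26.7 to 90.01 CPM, 18.2 to 59.2 CPM and 17.3 to 53.9 CPM, each with sh2-Ift88 3 as the highest library.

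Of the 4 spindle and chromosome genes, all had a lower fitted level, with a median of -0.35, and -0.03 without sh2-Ift88 2. Cdca2 (Repo-Man), which brings a phosphatase to chromosomes at anaphase, had the smallest p of the members. It was at 20.6, 40.97 and 40.7 CPM in control libraries and at 21.8, 10.9 and 19.2 CPM in those labelled sh2-Ift88, and as mean and SD at 34.1 ± 11.7 CPM in the controls and 17.3 ± 5.69 CPM in the libraries labelled sh2-Ift88 (mean ± SD, n = 3 each). Control 1 lay below sh2-Ift88 1, so the groups overlapped. The difference was -0.98 (SE 0.38), with an unadjusted p of 0.0363 and an adjusted p of 0.9995 in edgeR, and -0.73 without sh2-Ift88 2. Top2a, whose values stand above, had a difference of -0.55 (SE 0.42), and Mki67 of -0.15 (SE 0.39). Tpx2, the spindle protein that activates Aurka, spanned 39.9 to 112 CPM.

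Of the 4 cytokinesis genes, 3 had a lower and 1 a higher fitted level, with a median of -0.35, and 0.02 without sh2-Ift88 2. Anln (anillin), a scaffold of the contractile ring, was at 61.4, 62.96 and 99.8 CPM in control libraries and at 42.7, 28.5 and 77.2 CPM in those labelled sh2-Ift88, a difference of -0.60 (SE 0.41). Prc1, which bundles the microtubules of the central spindle, was at 74.9, 82.5 and 92.4 CPM in control libraries and at 61.3, 31.4 and 108 CPM in those labelled sh2-Ift88, a difference of -0.31 (SE 0.43). For both, sh2-Ift88 1 and sh2-Ift88 2 lay below the controls and sh2-Ift88 3 did not. Racgap1, the GTPase-activating partner of Kif23 in centralspindlin, was at 87.5, 115 and 111 CPM in control libraries and at 191, 63.9 and 169.8 CPM in those labelled sh2-Ift88. Its libraries sh2-Ift88 1 and sh2-Ift88 3 lay above all controls and sh2-Ift88 2 below all of them, and the difference was 0.44 (SE 0.41). Without sh2-Ift88 2 it was 0.78 (SE 0.26), with an unadjusted p of 0.0222 and an adjusted p of 0.9998 in edgeR. Ect2, the exchange factor that Racgap1 activates to start furrowing, spanned 18.98 to 89.98 CPM and did not share that pattern, with control 1 at 29.2 CPM.

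How closely members followed one another was described by taking each library's mean deviation over the 42 genes away from each gene's own deviation. Before this step the SD of log2 CPM over the 6 libraries was a median of 0.66 over the members, against 0.49 over all genes tested. After it the median over the members was 0.26. This value has no counterpart over all genes, as the step takes away the members' own mean and so narrows their spread as a set. Nuf2, Bub1b and Top2a followed the common level most closely, with a remaining SD of 0.14 each. Racgap1 departed most, with a remaining SD of 0.49: it was 0.77 above the common level in sh2-Ift88 1 and at -0.61 in control 3. Bub3 came next with 0.47, at 0.70 in sh2-Ift88 2, as it was less low there than the others. Single-library departures of over 0.6 were also seen for Cenpe in control 2 (0.71), Kif4 in control 1 (0.65), Aurkb in control 3 (0.63), Ect2 in control 1 (-0.64) and Cdca2 in sh2-Ift88 3 (-0.74). All 42 genes come from the same 6 libraries, so these values describe shared variation between libraries and are no test.

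Levels of different genes are set side by side here per length, as CPM per kb of exon in GENCODE vM21, an annotation of a later build than the mm9 that the authors used, so they are approximate. Top2a was the highest in each of the 6 libraries, at a mean of 70.6 CPM per kb (range 27.6 to 104). Mad2l1, whose annotated exons add up to 8032 bases, was the lowest in each, at a mean of 2.71 CPM per kb. Cdc20 (50.6), Racgap1 (40.2), Ccnb1 (36.01) and Mki67 (27.1) came next to Top2a in mean CPM per kb. Their ranges over libraries, such as 10.1 to 67.9 for Ccnb1 and 20.9 to 62.3 for Racgap1, overlap one another. Within the Ndc80 complex Ndc80 and Spc25 were at 14.2 and 13.2 CPM per kb, Nuf2 at 9.41 and Spc24 at 6.37. In the passenger complex the mean levels over the 6 libraries were Aurkb (23.3), Cdca8 (15.6), Incenp (11.2) and Birc5 (7.63). Their order was not the same in every library, as sh2-Ift88 1 had Cdca8 at 18.3 and Aurkb at 16.01 CPM per kb. Cyclin B1 stood above cyclin B2, at 36.01 against 21.3 CPM per kb, but in sh2-Ift88 2 the levels were 10.1 for Ccnb1 and 10.3 for Ccnb2, with no spread of its own for a single library.

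**Figure D3:**
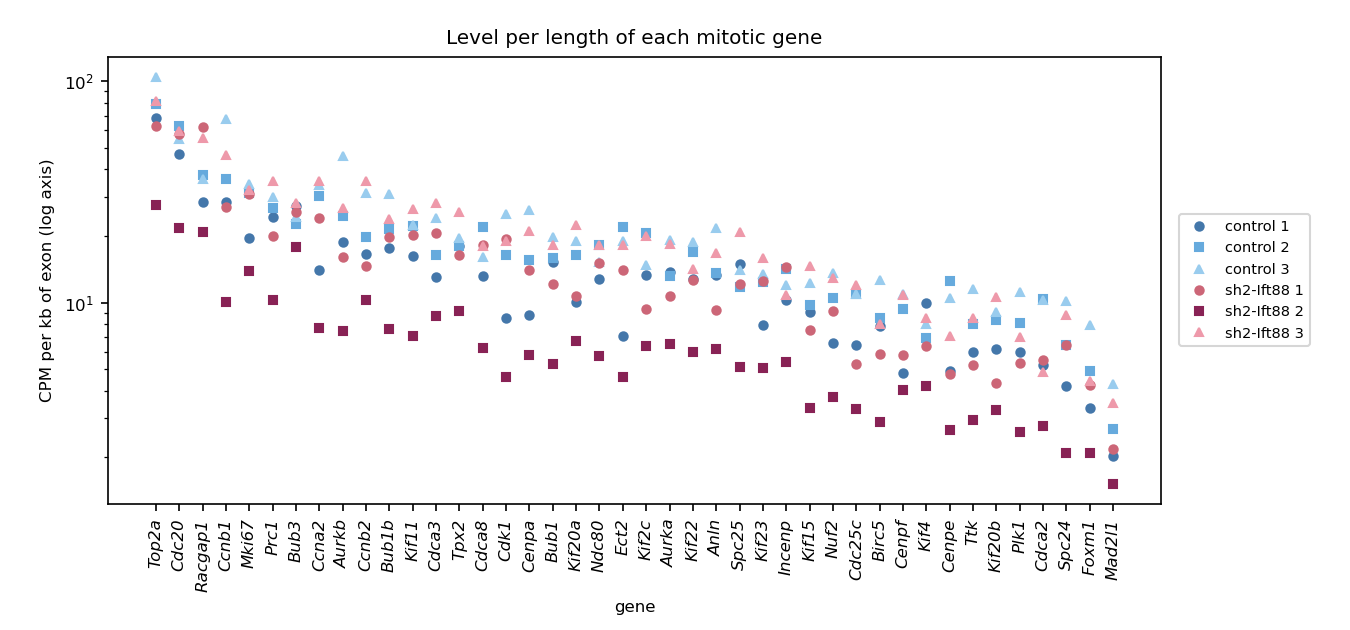
Each column is 1 mitotic gene, ordered by mean level, and each point is 1 library (blue: control, red: sh2-Ift88), with CPM per kb of exon on a log axis. The dark squares of sh2-Ift88 2 are the lowest point in every column, from Top2a at 27.6 to Mad2l1 at 1.52 CPM per kb.

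Other genes of mitosis from separate lists shared the low library in part. No gene of these lists passed edgeR's test (adjusted p of 0.9995 for each gene named here). Among 33 other kinetochore genes, 25 were lower and 8 higher in the libraries labelled sh2-Ift88 (median log2 difference -0.30), and sh2-Ift88 2 was the lowest library for 20, where it was so for 12.4% of all genes. Ska3 (listed as F630043A04Rik), which holds kinetochores on growing and shrinking microtubules, was at 9.63, 15.4 and 21.6 CPM in control libraries and at 9.99, 4.70 and 8.49 CPM in those labelled sh2-Ift88, and the Cenpa chaperone Hjurp was at 101, 128 and 146 CPM in control libraries and at 57.6, 52.9 and 119 CPM in those labelled sh2-Ift88. Of 39 other spindle and motor genes, 34 were lower and 5 higher (median -0.32), with sh2-Ift88 2 the lowest for 28. The spindle protein Dlgap5 was at 30.5, 39.6 and 42.5 CPM in control libraries and at 23.003, 13.3 and 25.2 CPM in those labelled sh2-Ift88, a difference of -0.87 (SE 0.31). Its groups did not overlap, as they did not for 8.39% of all genes. Dlgap5 was named for the smallest p of its list, so this does not describe the list. Of 23 genes of condensin, cohesin and separase, 19 were lower and 4 higher (median -0.33), with sh2-Ift88 2 the lowest for 13. The condensin II subunit Ncapg2, also named for the smallest p of its list, was at 46.9, 56.3 and 72.9 CPM in control libraries and at 27.3, 22.4 and 38.9 CPM in those labelled sh2-Ift88, a difference of -0.99 (SE 0.30) with groups that did not overlap either. Cohesion also needs the acetyltransferase Esco2, which was at 35.3, 35.8 and 30.3 CPM in control libraries and at 28.9, 13.5 and 24.9 CPM in those labelled sh2-Ift88. Of 14 tested genes of entry control, 12 were lower and 2 higher, with sh2-Ift88 2 the lowest for 9, and the medians of these lists all lay near that of the 42 members. Cyclin F (Ccnf) was at 22.7, 29.3 and 39.2 CPM in control libraries and at 10.9, 9.44 and 25.3 CPM in those labelled sh2-Ift88, and Mastl, the Greatwall kinase, was at 19.5, 33.2 and 29.4 CPM in control libraries and at 17.4, 8.20 and 21.1 CPM in those labelled sh2-Ift88. Of 8 other cytokinesis genes, 6 were lower and 2 higher, with sh2-Ift88 2 the lowest for 3, and the citron kinase gene Cit was at 11.5, 20.97 and 29.8 CPM in control libraries and at 10.9, 11.9 and 15.7 CPM in those labelled sh2-Ift88.

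The anaphase promoting complex, the ubiquitin ligase that Cdc20 activates, had other counts: 6 of 16 genes lay lower and 10 higher (median 0.02), and sh2-Ift88 2 was the lowest library for 5. Its subunit Cdc16 was at 151, 101 and 71.1 CPM in control libraries and at 134, 160.3 and 143 CPM in those labelled sh2-Ift88, with sh2-Ift88 2 as the highest library. Chosen after its values were seen, the ubiquitin-conjugating enzyme Ube2c, which works with the complex, was at 24.02, 24.8 and 40.9 CPM in control libraries and at 25.3, 11.4 and 40.9 CPM in those labelled sh2-Ift88, with sh2-Ift88 2 as the lowest. Of 24 regulators of mitotic transcription (MuvB, B-MYB, E2F, retinoblastoma and NF-Y genes), 17 were lower and 7 higher (median -0.21), with sh2-Ift88 2 the lowest for 8. E2f3, an activator of S phase genes, was at 24.9, 30.6 and 39.8 CPM in control libraries and at 14.8, 21.7 and 21.1 CPM in those labelled sh2-Ift88, a difference of -0.73 (SE 0.28). Chosen after their values were seen, the B-MYB gene Mybl2 was at 15.2, 9.11 and 17.2 CPM in control libraries and at 12.8, 6.72 and 12.4 CPM in those labelled sh2-Ift88, while the NF-Y subunit Nfyc was at 69.6, 61.98 and 41.998 CPM in control libraries and at 59.3, 55.4 and 60.8 CPM in those labelled sh2-Ift88.

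The DNA replication genes, the nearest group in the cell cycle, were also lowest in sh2-Ift88 2, for 28 of 42, but the gap to the other 5 libraries was a median of -0.72 on the log2 scale against -1.38 for the mitotic genes; this difference between the lists was not tested. Their mean level was 5.29, 5.16 and 5.68 in control libraries and 5.31, 4.65 and 5.21 in those labelled sh2-Ift88 (log2 CPM), with 35 genes lower and 7 higher in the libraries labelled sh2-Ift88. The licensing factor Cdc6 was at 19.3, 15.5 and 35.2 CPM in control libraries and at 9.99, 8.80 and 11.5 CPM in those labelled sh2-Ift88, a difference of -1.21 (SE 0.37). For Cdc6, named for the smallest p of its list, all libraries labelled sh2-Ift88 lay below all controls, which held for 0 of the 42 mitotic genes. Groups did not overlap, in either direction, for 8.39% of all genes tested. Among 15 G1 cyclins, kinases and their inhibitors, 10 were lower and 5 higher, with sh2-Ift88 2 the lowest for 5.

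**Figure D4:**
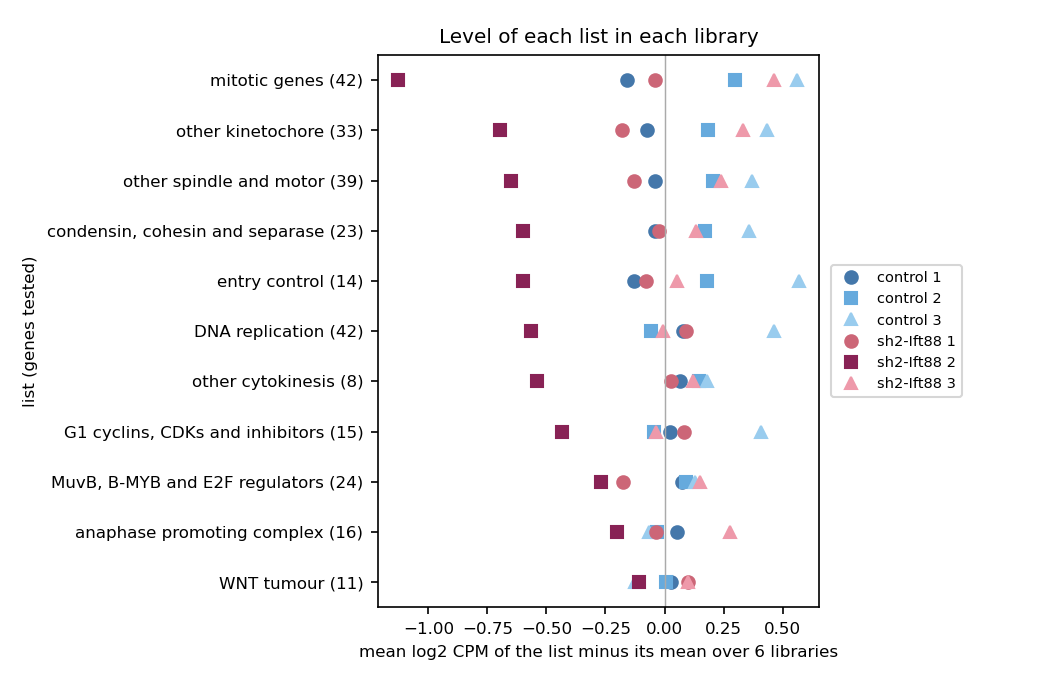
Each row is a gene list with its number of genes tested, each point is 1 library, and the x axis gives the list's mean log2 CPM minus its mean over the 6 libraries. The dark square of sh2-Ift88 2 lies furthest left for the mitotic genes, at -1.13, and nearer to the other libraries for the anaphase promoting complex and the WNT tumour genes.

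Some library values moved with sh2-Ift88 2. It had the largest share of reads without a feature, 39.5%, against 18.8% to 34.98% in the other 5, and the most olfactory receptor genes with counts, and the part of either in the low mitotic level was not tested. Control 2 and sh2-Ift88 3, which also had counts in over 100 olfactory receptor genes, had mean mitotic levels of 5.70 and 5.86 log2 CPM. Those of control 1 and sh2-Ift88 1, which had not, were 5.24 and 5.36. The TMM factor of sh2-Ift88 3 was 0.598, against 1.049 to 1.238 in the other libraries. The place of sh2-Ift88 3 above control 1 and sh2-Ift88 1 thus depends on that scaling. The 15 mature neuron markers summed to 66.8, 208 and 587 CPM in control libraries and at 269, 192 and 44.7 CPM in those labelled sh2-Ift88, the 8 astrocyte markers to 316, 533 and 734 CPM in control libraries and at 747, 700.1 and 368 CPM in those labelled sh2-Ift88 and the 9 oligodendrocyte markers to 21.8, 119.6 and 256 CPM in control libraries and at 64.1, 101 and 23.4 CPM in those labelled sh2-Ift88. In these lists, as in the 11 microglia and macrophage markers (177, 176 and 228 CPM in control libraries and at 262, 179 and 90.7 CPM in those labelled sh2-Ift88) and the 8 endothelial markers (154, 121 and 73.5 CPM in control libraries and at 137, 103 and 95.5 CPM in those labelled sh2-Ift88), sh2-Ift88 2 lay between other libraries. The 8 fibroblast and mural markers summed to 2632, 3538 and 2826 CPM in control libraries and at 3658, 3046 and 2282 CPM in those labelled sh2-Ift88, and the 6 blood genes to 17.3, 115 and 94.1 CPM in control libraries and at 15.1, 73.99 and 16.6 CPM in those labelled sh2-Ift88. The 9 lymphocyte markers summed to at most 2.32 CPM, in sh2-Ift88 2, and no list had a marker at 0 in all libraries. Markers of 1 list did not share an order of libraries: among astrocyte genes the filament gene Gfap was at 0.394, 71.7 and 188 CPM in control libraries and at 37.6, 67.2 and 1.75 CPM in those labelled sh2-Ift88, the metabolic enzyme gene Aldh1l1 at 4.82, 4.72 and 11.02 CPM in control libraries and at 7.19, 6.72 and 11.4 CPM in those labelled sh2-Ift88 and the gap junction gene Gja1 at 259, 236 and 124 CPM in control libraries and at 479.8, 355 and 274 CPM in those labelled sh2-Ift88. The part of any of these cell types in the mitotic level was not tested. The 12 WNT tumour genes summed to 6156, 3723 and 3948 CPM in control libraries and to 5524, 4218 and 4878 CPM in those labelled sh2-Ift88. By this sum control 2 and control 3 lay below sh2-Ift88 2. The mean log2 CPM of the 11 tested was 7.05, 7.03 and 6.90 in control libraries and 7.12, 6.91 and 7.12 in those labelled sh2-Ift88. By this mean control 2 lay above sh2-Ift88 2 and control 3 just below it.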

How the data were processed

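RNA-seq libraries came from a stranded total RNA kit, per the labels' protocols, and the submitters' processing notes name BWA and mm9. Counter, annotation and strand setting: not given in the sources used here, so genes that overlap or have near-identical copies may share counts. The deposited values are raw counts per gene, 1 table per library, with 5 closing tallies, which were left out. Reads without a feature took 18.8% to 39.5% of tallied reads.

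Testing of the counts used edgeR 4.0.16 under R 4.3.3 (filterByExpr, 16768 genes kept, TMM, glmQLFit with robust=TRUE, two-sided glmQLFTest, no covariate), with Benjamini-Hochberg adjustment over all genes at 0.05. The fit was checked on simulated counts with independent genes, 1 fixed dispersion and no shared shifts of genes between libraries. That check therefore does not cover the spread between libraries seen here. CPM, means and SDs were computed from the scaled counts, with an offset of 0.01 CPM for log2 means. Alternatives used DESeq2 1.42.0, limma-voom (limma 3.58.1), other scalings and filters and each library left out; 1 scaling was added after the data were seen.

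The members and lists were chosen with earlier results of these data known. Named in full are, per role, up to 3 members of smallest p and the one of highest mean CPM; per other list, up to 3 genes of smallest p could be named. Cdk1, Axin2, Lmx1a, Ube2c, Mybl2 and Nfyc were named outside this rule, after their values were seen. Promoter windows with over 30 bases of GENCODE exon were not printed, and RefSeq windows were matched by symbol.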

Additional observations from a re-analysis of the deposited data

How the results depend on the processing

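No paired analysis was possible because the labels number no replicates; the numbers used here follow accession order. No member was called under any alternative run. Over all genes edgeR called 0, while DESeq2 called 58 higher and 17 lower and edgeR without a filter 5 higher and 1 lower. The median log2 difference of the members minus that of all genes was -0.30, and between -0.49 (limma-voom) and -0.29 (a term for olfactory receptor reads) under the other settings. With each library left out it lay between -0.77 (without sh2-Ift88 3) and 0.048 (without sh2-Ift88 2). Library sh2-Ift88 3 was the highest for 13 members, for 12 with DESeq2 size factors, for 0 with library totals alone and for 2 with totals that leave out the 4 abundant gene models, a scaling chosen after seeing the data. Library sh2-Ift88 2 was the lowest for 42, 42, 40 and 42 members in the same order, though with library totals alone it was so for 2.93% of all genes.

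Signs of single members turned under some settings; the cause was not tested. Cdca3 was at -0.36 with library totals alone, -0.056 in limma-voom and -0.079 with the totals that leave out the 4 gene models. Bub3 was at 0.004 with a term for olfactory receptor reads. Within the libraries with many such reads (control 2 against sh2-Ift88 2 and 3) Ccnb2 was at 0.20, Bub3 at 0.009 and Spc25 at 0.12. Within the others (control 1 and 3 against sh2-Ift88 1, assumed to vary like the controls) Cdk1 was at 0.17, Cdc20 at 0.14, Ndc80 at 0.059, Ect2 at 0.059, Incenp at 0.34, Cdca8 at 0.28, Kif11 at 0.016, Kif23 at 0.18 and Mki67 at 0.15. With 1 library left out at a time, the number of members that turned sign was 20 without sh2-Ift88 2, 10 without control 3, 2 without control 1 and at most 1 otherwise. Log2 differences then ran from -0.53 to 0.21 for Cdk1, -0.75 to 0.18 for Ccna2, -0.89 to 0.15 for Ccnb2, -0.31 to 0.46 for Cdca3, -0.22 to 0.12 for Bub3, -0.74 to 0.021 for Mad2l1, -0.50 to 0.09 for Cdc20 and -0.81 to 0.16 for Cenpa. They also ran from -0.60 to 0.10 for Ndc80, -0.70 to 0.11 for Nuf2, -0.74 to 0.14 for Spc24, -0.69 to 0.27 for Spc25, -0.61 to 0.053 for Incenp, -0.52 to 0.084 for Cdca8, -0.61 to 0.19 for Kif11 and -0.96 to 0.10 for Kif15. The remaining ranges were -0.83 to 0.13 for Kif20a, -0.39 to 0.33 for Kif23, -0.56 to 0.19 for Tpx2, -0.38 to 0.15 for Mki67, -0.81 to 0.013 for Ect2 and -0.88 to 0.025 for Prc1. Members had at least 143 counts in every library, and with 3 libraries a group their intervals were at least 1.16 log2 units wide.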

Other observations

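Genes of G1, the phase before DNA replication, differed from one another in which library was highest or lowest. The cyclin D2 gene Ccnd2, which drives G1, was at 4.18, 4.33 and 101 CPM in control libraries and at 7.47, 6.32 and 2.31 CPM in those labelled sh2-Ift88, so control 3, the library of highest mitotic level, stood far above the other 5 for this gene. The cyclin E2 gene Ccne2 was at 42.5, 35.6 and 77.6 CPM in control libraries and at 32.2, 21.7 and 35.5 CPM in those labelled sh2-Ift88, with control 3 as the highest and sh2-Ift88 2 as the lowest. The inhibitor Cdkn1a, a p53 target that stops the cycle, was at 7.72, 7.67 and 13.9 CPM in control libraries and at 3.68, 6.12 and 2.37 CPM in those labelled sh2-Ift88; each library labelled sh2-Ift88 lay below each control, with a log2 difference of -1.26 (SE 0.49) and an adjusted p of 0.9995 in edgeR. Cdkn1a was named for the smallest p of its list, and groups did not overlap, in either direction, for 8.39% of all genes tested. Over all 6 libraries it was highest in control 3, the library of highest mitotic level. In sh2-Ift88 2, the library of lowest mitotic level, Cdkn1a was the highest of its group but below each control. Its part in the mitotic level was not tested.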
